A study of Mus musculus with 5 samples.

Results

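Interferon-stimulated genes were followed through RNA-seq expression tables of 5 cultures of mouse embryonic fibroblasts (MEFs, connective-tissue cells grown out of embryos). The set comprised 34 named genes, taken by symbol from the loci of the authors' gene tables. All 34 were found. A locus of their own was present for 31 of them, out of 21372 symbols with such a locus, and 3 lay in a locus that joined several genes. By role there were 5 sensors of foreign nucleic acid, 8 signal factors and 21 effectors.

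The cultures came from C57BL/6 embryos of day E14.5 and were used at passage 30. Of the 5 libraries, 4 were made from Prep1-hypomorphic cells, which carry a Prep1 allele of reduced expression. These were infected with an empty vector (EV), or overexpressed Meis1 (M), Prep1 (P) or Meis1 and Prep1 together (MP). The remaining culture was wild type for Prep1 (WT) and has no vector in its label, so genotype, line and infection cannot be told apart wherever WT is compared. The growth text names hypomorphic embryos for every sample, WT included, whereas the genotype label of WT is wild type. Meis1 and Prep1 (gene Pknox1) are homeobox transcription factors that share Pbx partners. Neither the promoter that drove the added factors nor the number of clones or embryos behind a line is given in the sources used here.

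Interferons are secreted proteins by which cells warn their neighbours of infection. RNA sensors such as RIG-I and MDA5 trigger their release, and the type I receptor then acts through the kinases Jak1 and Tyk2 to assemble a complex that includes Stat2 and Irf9 and binds the interferon-stimulated response element (ISRE) in gene promoters. The genes so induced include the sensors and signal factors themselves, which forms a positive loop, and effectors that block viral replication. Fibroblasts are a classical source of interferon beta and keep a basal level of many of these transcripts.

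Each group held 1 library. The comparisons are thus of single libraries, with no replicate behind any value and no p-value given. The tables do not state how deeply each was sequenced. Levels are FPKM (fragment counts normalised to transcript length and library size) after the upper quartile of each library was set to 10, and are called units here. This was needed because the upper quartile as deposited ran from 9.63 FPKM in MP to 429 FPKM in M. The scale is narrow at the top, since 96.6% to 98.9% of the genes at 5 units or more lay between 5 and 20, so differences between well-expressed genes are compressed. Differences are log2((level + 1)/(level + 1)). A gene counted as kept where either of the compared libraries had at least 1 unit of it, and as called at a log2 difference of at least 1 (2-fold) in size. Pknox1 stood at 11.0 units in WT, 3.25 in M and 2.16 in EV, and at 0.554 and 0.569 in P and MP, against what the labels P and MP state, and every direction below for the libraries labelled P and MP carries that limit. Meis1 was highest in M (16.8) and MP (15.4), with WT at 12.4, P at 8.86 and EV at 8.32. Olfactory and vomeronasal receptor genes, which fibroblasts do not use, had a 95th percentile of 0.565 (EV) and 0.869 (M) units, and of 0.0497 to 0.0976 units for P, WT and MP. Values under about 1 unit in EV and M therefore lie near this background.

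Most of the interferon-stimulated genes had their lowest level in WT and their highest in EV. In WT against EV, 18 of the 31 genes with their own locus were at least 2-fold lower and none was higher, while 3.2% of all 11657 kept symbols were lower and 6.31% higher. Their median log2 difference was -1.06, against -0.07 over all kept symbols, and 30 of 31 were below 0 (55.9% of symbols). All 31 genes passed the floor of 1 unit, 10 of them through EV alone. WT had the lowest of the 5 levels at 24 of the 31 genes (41.3% of all symbols), MP at 5 (20.2%), and EV the highest at 25 (25.8%). The share of all symbols lowest in WT moved with the scale, to 68.9% when scaled by the median (29 of the 31 genes) and 19.4% on values as deposited (24 of the 31). The summed level of the 31 genes was 95.8 units for WT, 161 for P, 165 for MP, 189 for M and 227 for EV. In RNA from whole cultures, fewer cells that express a gene and less RNA per cell cannot be told apart. By percentile rank within each library, with 20 points as the limit, 9 of the 31 genes were lower in WT than EV (3.35% of all symbols).

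**Figure D1:**
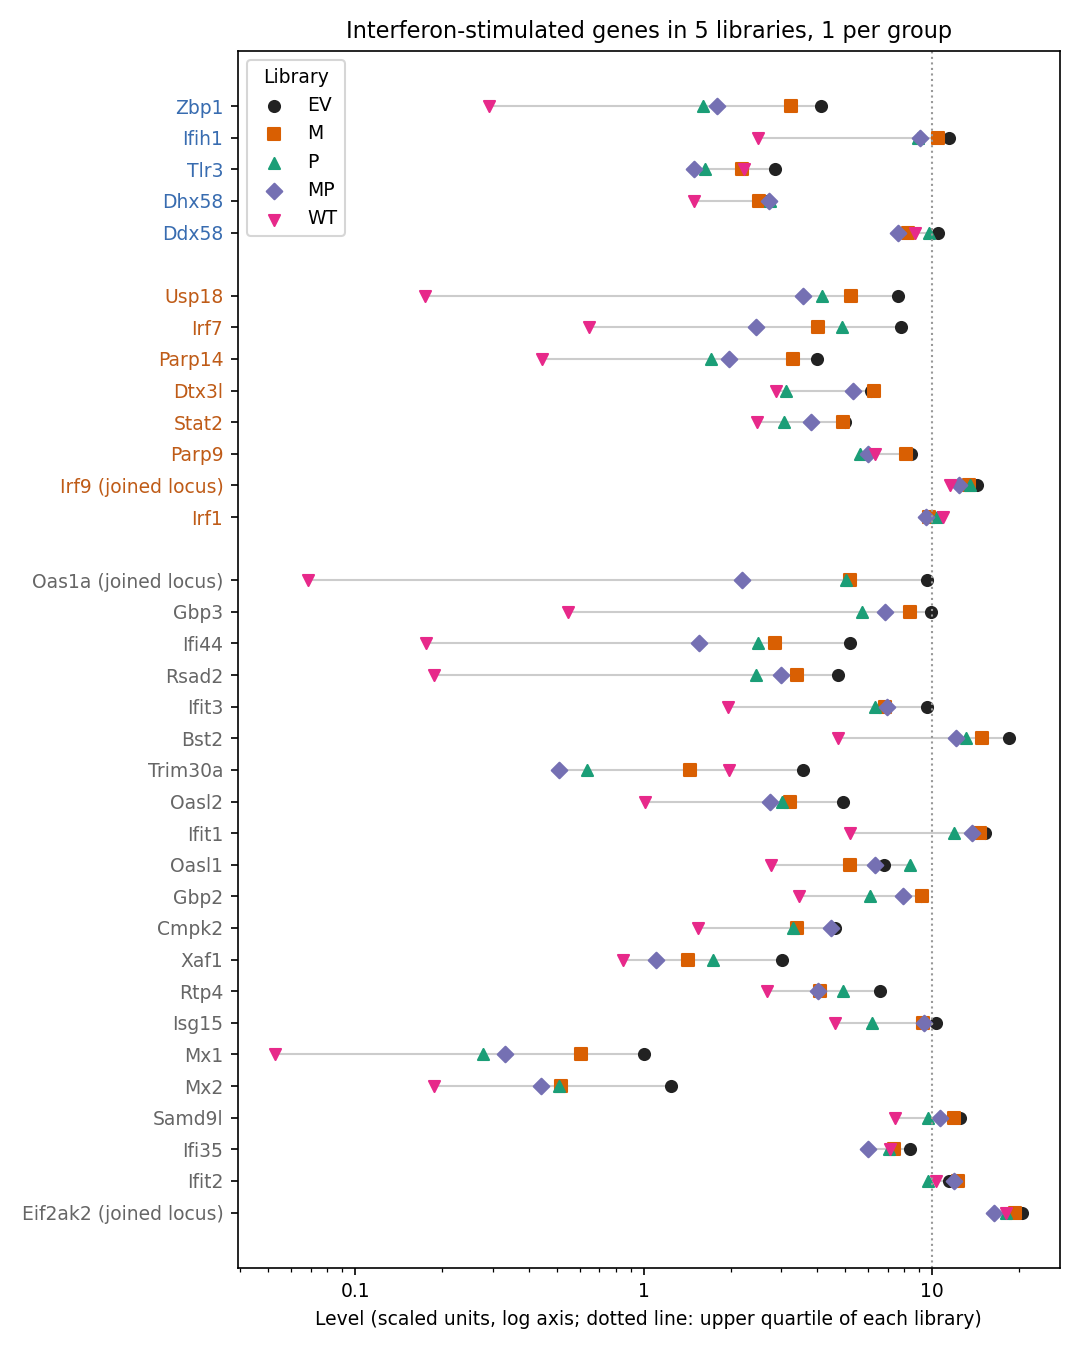
Level of each of the 34 genes (rows, grouped as sensors in blue, signal factors in orange and effectors in grey, and ordered by spread) in scaled units on a log axis, with 1 marker per library and a grey line over the range. WT (pink) lies furthest left at 24 of the 31 genes with their own locus, and EV (black) furthest right at 25.

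The low WT levels were also seen against libraries other than EV. WT was at least 2-fold below each of EV, M, P and MP at 10 of the 31 genes, against 0.961% of all symbols. These were the sensors Ifih1 and Zbp1, the signal factors Irf7 and Usp18, and the effectors Gbp3, Ifi44, Ifit1, Ifit3, Rsad2 and Bst2. Against the mean of the 4 hypomorphic libraries, 14 genes were at least 2-fold lower in WT (1.56% of all symbols). With EV and M both left out, 11 were (1.54%). Against P alone, 29 of the 31 genes passed the floor, Mx1 and Mx2 lying under it, and 11 were at least 2-fold lower and none higher, with 1.91% of symbols lower and 6.41% higher. The median there was -0.68, against -0.04 over all symbols. Ranked instead by percentile with 20 points as the limit, 2 genes were lower than in P, with 1.02% of symbols.

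The sensors did not share a single pattern. Ifih1, which encodes MDA5, the cytosolic receptor of long double-stranded RNA, stood at 2.50 units in WT, with EV at 11.4, M at 10.4, P at 8.89 and MP at 9.06. The 4 hypomorphic libraries lay close together and WT apart from them, at 21.9% of EV (log2 -1.83). Ddx58, which encodes RIG-I, the receptor of RNA with a 5′ triphosphate, stood at 8.68 in WT, with EV at 10.5, M at 8.21, P at 9.77 and MP at 7.62. WT lay inside the range of the hypomorphic libraries at this gene (log2 -0.25 against EV). Both are helicases that signal through the same adaptor, Mavs, and of the pair Ifih1 passed the 2-fold limit in WT.

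Zbp1, a sensor of Z-form nucleic acid that can start necroptosis, stood at 0.292 in WT, with EV at 4.11, M at 3.24, P at 1.61 and MP at 1.79. The 5 libraries thus formed 3 steps, with EV and M highest, P and MP in the middle and WT lowest (log2 -1.98 against EV). Dhx58, which encodes LGP2, the regulator of RIG-I and MDA5, stood at 2.66, 2.52, 2.74 and 2.72 in EV, M, P and MP and at 1.49 in WT (log2 -0.56). Tlr3, the endosomal receptor of double-stranded RNA, stood at 2.22 in WT, with EV at 2.86, M at 2.19, P at 1.63 and MP at 1.5. At Tlr3 the lowest libraries were P and MP, with WT between them and EV.

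Among the signal factors, Usp18 and Irf7 had the widest range. Usp18 removes ISG15 from proteins and blocks the type I receptor, which ends the response. It stood at 0.175 in WT, with EV at 7.58, M at 5.21, P at 4.14 and MP at 3.57, so that WT held 2.30% of the EV level (log2 -2.87). Irf7, the factor that amplifies interferon alpha genes, stood at 0.647 in WT, with EV at 7.79, M at 4.0, P at 4.85 and MP at 2.45, so that WT held 8.30% of EV (log2 -2.42). Irf7 also differed among the hypomorphic libraries, and MP held 31.5% of the EV level.

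Stat2, a subunit of the interferon-activated complex, stood at 2.47 in WT, with EV at 4.99, M at 4.88, P at 3.06 and MP at 3.78 (log2 -0.79 in WT against EV, under the 2-fold limit). Irf9, the DNA-contacting subunit of that complex, lay in a locus joined with Rnf31. That locus ran from 11.5 units in WT to 14.3 in EV, and the share of Irf9 in it cannot be read. Irf1, a factor induced mainly by interferon gamma, was at 0.12 in WT against EV: it stood at 10.9 in WT, with EV at 9.95, M at 9.75, P at 10.4 and MP at 9.55, and was the 1 gene of the 31 that was highest in WT.

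Parp9, Dtx3l and Parp14 are neighbours in function: Parp9 and the ubiquitin ligase Dtx3l form a complex that enhances interferon signalling, and Parp14 is a related ADP-ribosyltransferase. Parp14 stood at 0.444 in WT, with EV at 3.99, M at 3.29, P at 1.71 and MP at 1.98 (log2 -1.79 in WT against EV), in the same 3 steps as Zbp1. Dtx3l stood at 2.88 in WT, with EV at 6.11, M at 6.27, P at 3.12 and MP at 5.32. P and WT were the low libraries there (log2 -0.87 in WT and -0.79 in P against EV). Parp9 stood at 6.33 in WT, with EV at 8.41, M at 8.08, P at 5.63 and MP at 5.98, so that P, MP and WT lay together under EV and M. Parp9 had a second locus under the same symbol, at 1.84 to 3.87 units, with another order. There M was lowest at 1.84 and MP stood at 2.59, while WT (3.54) and P (3.64) lay near EV (3.87).

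Of the 19 effectors with their own locus, 13 were at least 2-fold below EV in WT (3.2% of all symbols), with a median of -1.12. The same held for 2 of 5 sensors and 3 of 7 signal factors. Against P, 7 of 17 effectors, 2 of 5 sensors and 2 of 7 signal factors were lower in WT (1.91% of all symbols). WT was the lowest library at 16 of these 19 (41.3% of all symbols). The 12 effectors with the widest range over the 5 libraries are described singly. That range includes WT, so the 11 of them lowest in WT are no separate result. The joined locus of Oas1a and Oas1g, 2′-5′ oligoadenylate synthetases that activate RNase L, ran furthest: 0.0686 in WT, with EV at 9.57, M at 5.19, P at 5.02 and MP at 2.20, so that WT held 0.716% of EV (log2 -3.31). WT was there at the 95th percentile of receptor genes in that library (0.0693), and MP at 22.9% of EV. Its synthetase-like relatives Oasl1 and Oasl2 differed less. Oasl2 stood at 1.01 in WT, with EV at 4.89, M at 3.21, P at 3.01 and MP at 2.74 (log2 -1.55 in WT against EV). Oasl1, which dampens Irf7 translation, stood at 2.75 in WT, with EV at 6.80, M at 5.20, P at 8.40 and MP at 6.31 (log2 -1.06 in WT against EV), with P rather than EV highest.

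Gbp3 and Gbp2 encode guanylate-binding proteins, GTPases that attack the vacuoles of intracellular pathogens. Gbp3 stood at 0.546 in WT, with EV at 9.93, M at 8.34, P at 5.71 and MP at 6.83 (WT at 5.50% of EV, log2 -2.82 in WT against EV). Gbp2 stood at 3.46 in WT, with EV at 9.11, M at 9.22, P at 6.10 and MP at 7.89 (log2 -1.18 in WT against EV). In each of these genes the order was EV and M, then MP, then P, then WT. The Gbp, Trim30, Ifit and Oas1 families hold close copies, and the labels do not say how reads shared by copies were assigned, so single members of them are uncertain.

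Ifi44 and Rsad2 were under 1 unit in WT and above it in the other 4 libraries. Ifi44, a cytoplasmic protein with antiproliferative activity, stood at 0.176 in WT, with EV at 5.20, M at 2.85, P at 2.49 and MP at 1.56 (WT at 3.39% of EV, log2 -2.40 in WT against EV). Rsad2, which encodes viperin, an enzyme that makes a chain-terminating nucleotide, stood at 0.187 in WT, with EV at 4.72, M at 3.40, P at 2.45 and MP at 2.99 (WT at 3.96% of EV, log2 -2.27 in WT against EV). Cmpk2, the nucleotide kinase gene that neighbours Rsad2, held more of its level: 1.54 in WT, with EV at 4.61, M at 3.40, P at 3.29 and MP at 4.45 (WT at 33.5% of EV, log2 -1.14 in WT against EV).

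The Ifit genes, which encode tetratricopeptide proteins that bind foreign RNA, differed within 1 cluster. Ifit1 stood at 5.18 in WT, with EV at 15.2, M at 14.6, P at 11.9 and MP at 13.7 (log2 -1.39 in WT against EV), and its percentile rank among all symbols went from 91.1 in EV to 58.1 in WT. Ifit3 stood at 9.55, 6.87, 6.33 and 6.97 in EV, M, P and MP and at 1.96 in WT (log2 -1.83). Ifit2, named after its values were seen, stood at 10.3 in WT, with EV at 11.4, M at 12.3, P at 9.64 and MP at 11.9. WT lay inside the hypomorphic range at Ifit2 (log2 -0.13) and outside it at both neighbours.

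Bst2, which encodes tetherin, a membrane protein that holds budding virions on the cell, stood at 4.71 in WT, with EV at 18.5, M at 14.9, P at 13.1 and MP at 12.1 (log2 -1.77 in WT against EV). Its percentile rank went from 97.7 in EV to 57.2 in WT. Trim30a, a ubiquitin ligase that restrains Toll-like receptor signalling, was the exception among the 12: it stood at 1.97 in WT, with EV at 3.55, M at 1.44, P at 0.636 and MP at 0.509. There P and MP were the low libraries, at 17.9% and 14.3% of EV, and WT lay above M, P and MP.

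The other 9 effectors had log2 differences between -1.12 and -0.13 in WT against EV. Of these, 3 were past the 2-fold limit (Xaf1, Rtp4 and Isg15), against 3.2% of all symbols lower. WT was the lowest library at 6 of them, against 41.3% of all symbols. Isg15, the ubiquitin-like protein that is conjugated to newly made proteins, lay just inside that limit (log2 -1.0): it stood at 4.62 in WT, with EV at 10.3, M at 9.31, P at 6.17 and MP at 9.38. The GTPase genes Mx2 and Mx1 lay just outside it, at -0.92 and -0.93. Their levels in EV, 1.24 and 1.0, were the lowest EV levels of the set, against a receptor-gene 95th percentile of 0.565 in that library. Samd9l, Ifi35, Ifit2 and the joined locus of Eif2ak2 (the double-stranded RNA kinase PKR) and Gm6548 were the remaining ones under the limit, the last at 20.5 in EV and 17.9 in WT.

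**Figure D2:**
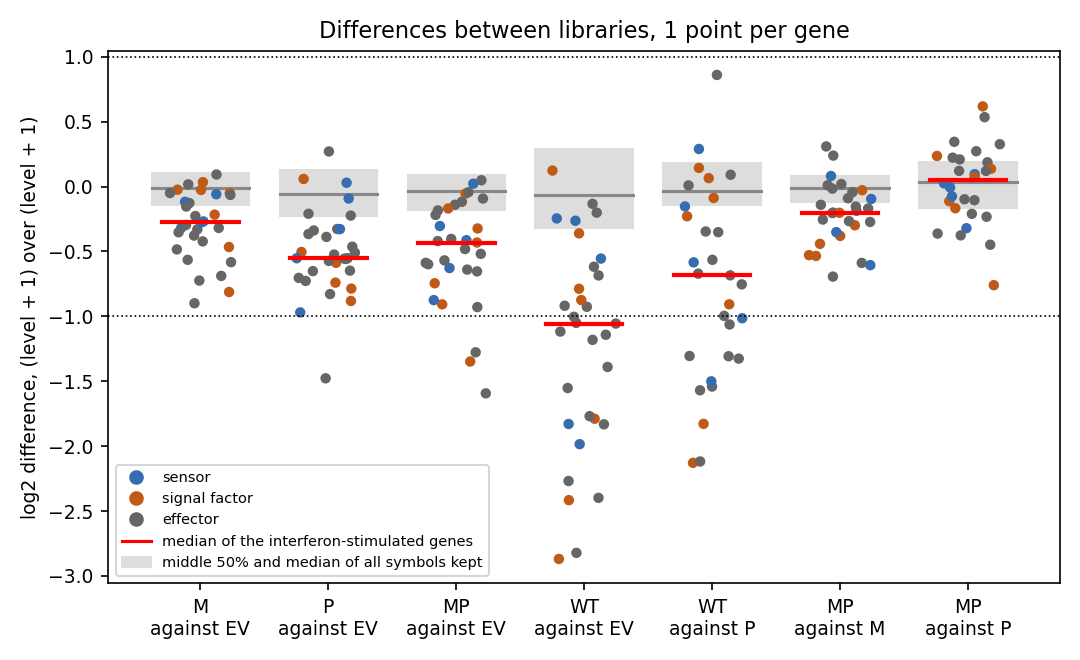
Log2 differences between libraries for the genes with their own locus that passed the floor (points, coloured by role), with their median in red and the middle 50% and median of all kept symbols in grey. Dotted lines mark 2-fold. The points of WT against EV have a median of -1.06, those of M, P and MP against EV -0.28, -0.55 and -0.43, and those of MP against P 0.05.

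Promoter sequence was examined because these genes share a known response element. RefSeq promoter windows (GRCm38.p6, from 250 bases before to 50 after an annotated start) were at hand for 26 of the 34 genes. The ISRE core was searched as GAAANNGAAA and, for the other strand, TTTCNNTTTC, with overlapping matches allowed. It was present in a window of 13 of the 26 genes (50%), against 3.99% of the 27025 symbols in the table. For 10 of the 13, a match lay wholly before the start. Stretches of 8 of them are shown, chosen as those of the genes whose levels in WT were at least 2-fold below EV, with the joined Oas1a included. They are written 5′ to 3′ on the gene's strand, with the matches in capitals.
Gbp3, chr3:142559974-142560039, plus strand: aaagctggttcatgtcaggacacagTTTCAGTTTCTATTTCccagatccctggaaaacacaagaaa
Gbp2, chr3:142620579-142620638, plus strand: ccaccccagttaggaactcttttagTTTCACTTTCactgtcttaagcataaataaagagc
Ifit1, chr19:34640760-34640838, plus strand: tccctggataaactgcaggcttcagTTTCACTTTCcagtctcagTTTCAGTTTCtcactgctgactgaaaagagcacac
Ifit3, chr19:34583348-34583441, plus strand: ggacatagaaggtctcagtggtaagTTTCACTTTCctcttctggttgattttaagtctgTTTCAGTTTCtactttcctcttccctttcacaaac
Isg15, chr4:156200850-156200921, minus strand: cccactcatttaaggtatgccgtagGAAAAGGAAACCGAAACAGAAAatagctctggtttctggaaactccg
Oas1a, chr5:120907526-120907570, minus strand: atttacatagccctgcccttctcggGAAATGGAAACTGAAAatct
Rsad2, chr12:26456538-26456597, minus strand: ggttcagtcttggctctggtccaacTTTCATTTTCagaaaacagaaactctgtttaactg
Bst2, chr8:71537562-71537627, minus strand: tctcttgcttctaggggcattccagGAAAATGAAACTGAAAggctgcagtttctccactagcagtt

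Several of these promoters held the core more than once. Isg15 had 3 overlapping matches between 78 and 57 bases before the start, and Gbp3, Ifit1, Ifit3, Oas1a and Bst2 had 2 each. The other matches before a start were those of Stat2 and Trim30a. At Ddx58, Ifih1 and Eif2ak2 the match lay after the start, as did one in a second window of Trim30a. Among genes with their own locus, 8 of the 11 with a match were at least 2-fold lower in WT than EV (median log2 -1.39). So were 6 of the 12 with a window but no match (median -0.97), among them Irf7, Ifi44 and Oasl2. Of all other kept symbols with a window, 6% with a match and 2.51% without one were lower. With so few genes, the 2 counts of the set do not separate genes with a match from those without. A match is a description of letters, and a window without one says only that these letters are not in it. The gamma-activated site, searched as TTCNNNGAA, was in a window of 6 of the 26 genes (23.1%), against 9.55% of all symbols. These were Irf1, Ifit2, Ifi35, Bst2 and the joined Eif2ak2 and Oas1a, at 0.12, -0.13, -0.20, -1.77, -0.18 and -3.31 in WT against EV.

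**Figure D3:**
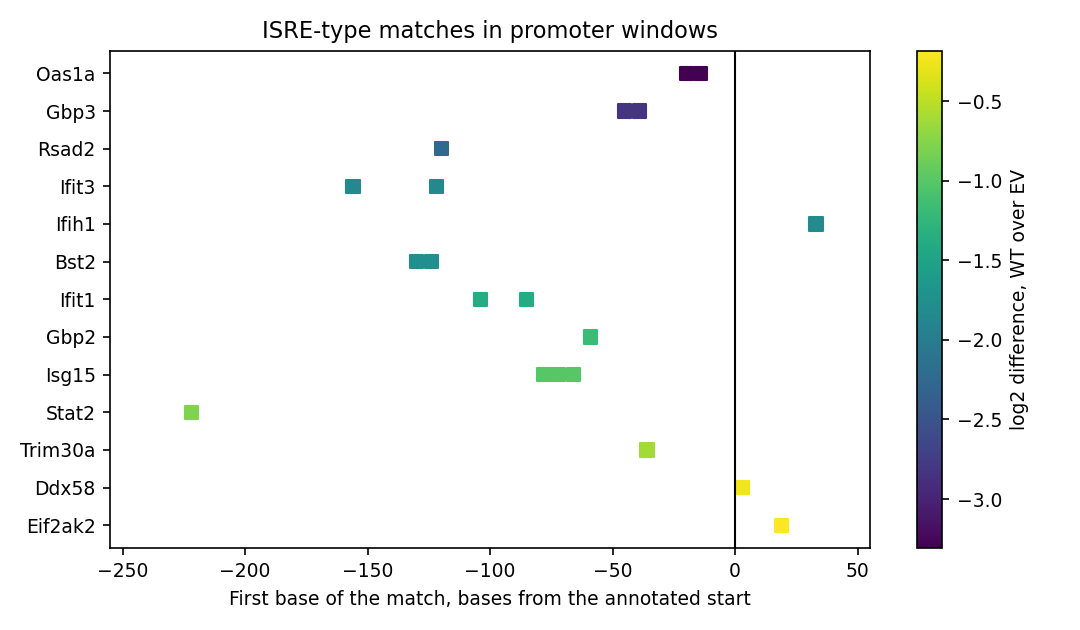
Position of each ISRE-type match (squares) relative to the annotated start of 13 genes, ordered and coloured by the log2 difference of WT over EV (Oas1a and Eif2ak2 from joined loci). Matches lie before the start (vertical line) in 10 genes and after it in Ddx58, Ifih1 and Eif2ak2, and the WT differences run from -3.31 at Oas1a to -0.18 at Eif2ak2.

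The comparison of M with EV bears on added Meis1 when Prep1 is low. No gene of the 31 reached 2-fold in either direction, against 0.628% of symbols lower and 0.296% higher. The median was -0.28, against -0.01 over all symbols, and 28 of the 31 genes were below 0 (53.5% of symbols). Trim30a (-0.90), Irf7 (-0.81), Xaf1 (-0.72) and Ifi44 (-0.69) were furthest down, while Gbp2, Dtx3l and Ifit2 were level with EV or slightly above it (0.02, 0.03 and 0.09). On values as deposited the median was 1.09, against 1.26 over all symbols, and 19 of the 31 genes lay below that median of all symbols. There 19 of the 31 genes were at least 2-fold higher in M and 0 lower. Of all symbols 12.4% were lower. The share higher was not counted, but the median of all symbols there, 1.26, is itself past the 2-fold limit. In the authors' deposited table, of the 31 genes, 16 had a usable test of M against EV, and none was called, while 19.5% of symbols with such a test were called higher and 0.0592% lower.

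P and MP were set against the same EV library, so a level that is high in EV enters all 3 comparisons. In P, 1 gene of 31 was at least 2-fold lower, Trim30a at -1.48 (1.85% of symbols lower, 0.654% higher), with Zbp1 at -0.97 and Parp14 at -0.88 next. The median was -0.55, against -0.05 over all symbols, and 28 of 31 were below 0 (58.4%). Oasl1 (0.27), Irf1 (0.06) and Dhx58 (0.03) were the 3 above EV. In MP, 3 of 31 were at least 2-fold lower (2.05% of symbols lower, 0.208% higher): Trim30a at -1.59, Irf7 at -1.35 and Ifi44 at -1.28. The median there was -0.43, against -0.04, and 29 of 31 were below 0 (57.8%). Scaled by the median of each library, these medians were -0.05 and 0.36. In the authors' deposited table all 25 of the genes with a usable test were called lower in each of P, MP and WT against EV, as were 98.8%, 99.3% and 96.4% of all symbols tested (0.114% were called higher in WT). As deposited, the upper quartile was 157 FPKM in EV, 11.6 in P, 9.63 in MP and 12.2 in WT.

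Pairs of libraries that share none in common give each factor's label a second reading. For the Meis1 label these pairs are M against EV and MP against P. Of 28 genes kept in each, 13 were below 0 in both (26.6% of symbols), 3 above 0 in both (30.2%), and 12 below 0 in the first and above it in the second (26.3%). None was at least 2-fold lower in both (0.0567%). Irf7 was the gene furthest down in MP against P (-0.76, after -0.81 in M against EV), and Ifi44 (-0.45 and -0.69) and Xaf1 (-0.38 and -0.72) were also down in both pairs. Isg15 was at 0.53 in MP against P and at -0.13 in M against EV. In MP against P none of the 28 genes reached 2-fold (0.761% of symbols lower, 0.251% higher), 13 were below 0 (44.2%) and the median was 0.05, against 0.04 over all symbols.

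For the Prep1 label the pairs are P against EV and MP against M. Of 29 genes kept in each, 23 were below 0 in both (33% of symbols) and 2 were above 0 in both (21.9%), with none at least 2-fold lower in both (0.318%). None of the 29 reached 2-fold in MP against M (1.28% of symbols lower, 0.23% higher), where the median was -0.20, against -0.01 over all symbols. Scaling by the median moved these to 0.12 and 0.33, so the sign of the former depends on the scale and its place below all symbols does not. Trim30a (-1.48 and -0.69), Zbp1 (-0.97 and -0.61), Ifi44 (-0.83 and -0.59), Parp14 (-0.88 and -0.53), Irf7 (-0.59 and -0.53) and Usp18 (-0.74 and -0.44) were the genes furthest down in MP against M. The libraries labelled P and MP held less Pknox1 than EV and M, so these differences cannot be assigned to added Prep1. EV and M also carried the higher receptor-gene background, whose part in them was not tested.

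**Figure D4:**
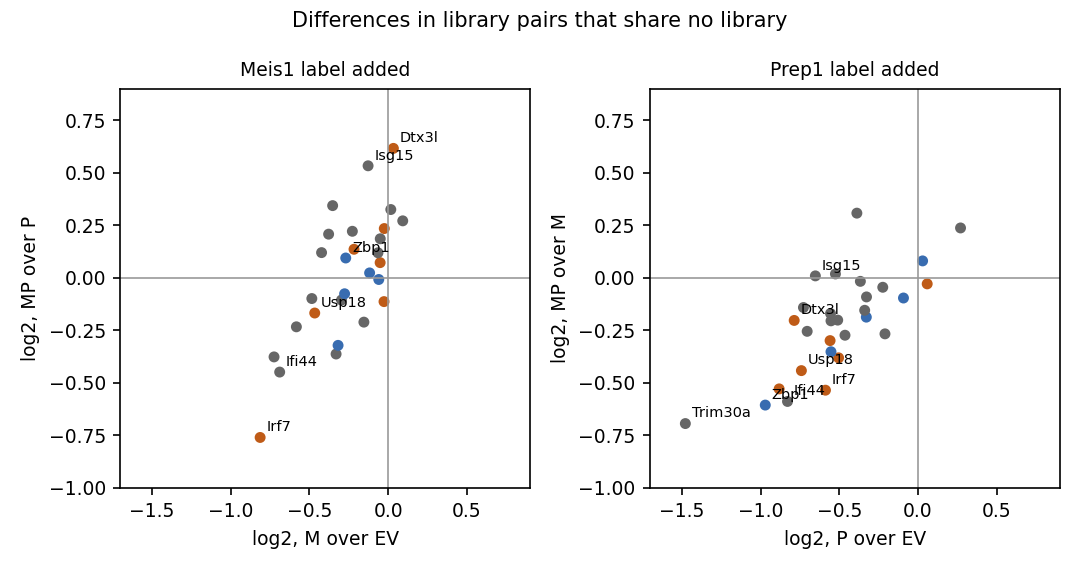
Log2 difference of each gene with its own locus in 2 pairs of libraries that share no library, for the Meis1 label (left, M over EV against MP over P) and the Prep1 label (right, P over EV against MP over M), coloured by role as sensors (blue), signal factors (orange) and effectors (grey). On the right 23 of 29 points lie below 0 on each axis; on the left 13 of 28 do.

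The rest of the pathway was described with lists of genes outside the 34. Interferon genes themselves were low everywhere: none of the 17 with a locus (type I genes and Ifng, the type II gene) reached 1 unit in any library, and the highest value was 0.746 in EV. Receptors and their kinases were well expressed, with a median of -0.01 in WT against EV. None of 8 was 2-fold apart there, a count near the shares of all symbols (3.2% lower and 6.31% higher). Ifnar1, a chain of the type I receptor, stood at 8.33 in WT, with EV at 8.36, M at 8.67, P at 8.03 and MP at 9.15. Jak1 stood at 16.6 in EV and 11.9 in WT, and Tyk2 at 6.24 and 8.71. These 3 genes were named for their place in the pathway after their values were seen.

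Of 22 kept signal chain genes, none was 2-fold lower in WT than EV (3.2% of all symbols) and 2 were higher (6.31%). With 22 genes, such counts lie near the shares of all symbols. The 2 higher genes were Socs1 and Irf5. Socs1, the feedback inhibitor of Jak kinases, stood at 3.98 in EV and 10.6 in WT (log2 1.22). Irf5 stood at 2.83 and 7.14 (1.09). In P and MP Socs1 stood at 5.65 and 2.03. Usp18, a brake that acts at the receptor, had its lowest level in WT, while Socs1 had its highest there.

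Of 45 kept interferon-induced genes outside the 34, 13 were at least 2-fold lower in WT than EV (3.2% of all symbols) and 1 higher (6.31%). Their median was -0.51. The higher one was Uba7, at 0.932 in EV and 4.77 in WT, which passed the floor through WT alone. Against P, 4 of 38 were lower (1.91% of all symbols) and 1 higher (6.41%), with a median of -0.12. The chemokine Ccl5 stood at 1.69 in WT, with EV at 15.1, M at 17.1, P at 13.0 and MP at 14.9. The GTPase genes Gbp7 (log2 -1.90 against EV) and Igtp (-1.63), Phf11d (-2.45), Slfn8 (-2.50) and Sp110 (-1.27) were among the lower ones. Iigp1, another such GTPase gene, stood at 1.98 in EV and was listed at 0 in WT. Iigp1, Gbp7, Igtp, Phf11d, Slfn8 and Sp110 were under 1 unit in WT, so these passed the floor through EV alone. So did Aim2, Irgm2, Tgtp2 and Gbp6. NF-kB response genes are an inflammatory list that interferon does not define. In WT against EV, 2 of 20 were lower (3.2% of all symbols) and 1 higher (6.31%), with a median of -0.26. Cxcl5 was at -2.12, Traf1 at -1.29 and Cxcl1 at 3.15.

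**Figure D5:**
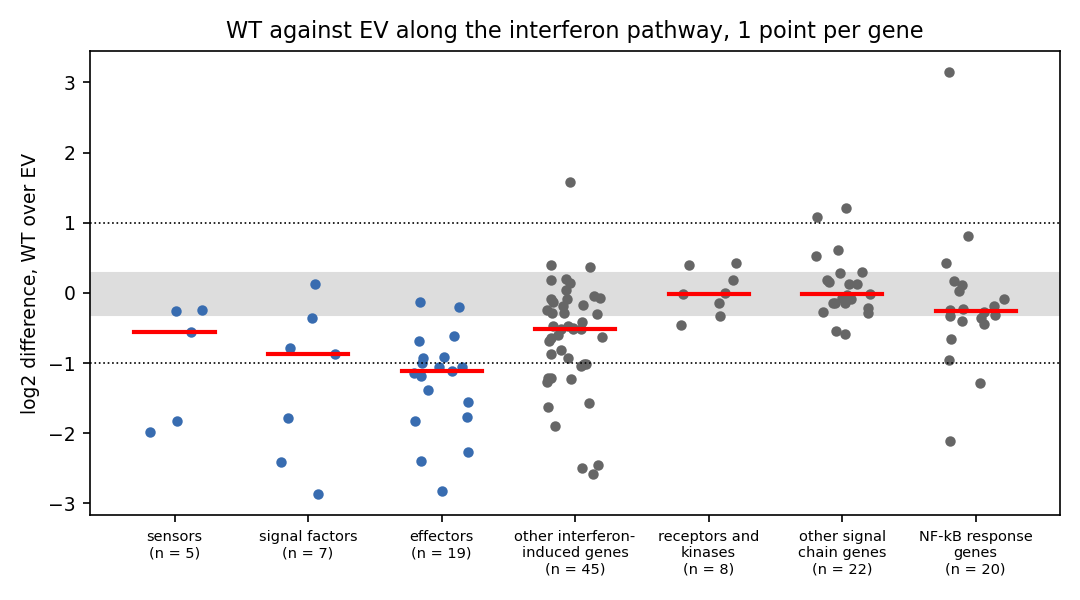
Log2 difference of WT over EV for each kept gene, by step of the interferon pathway, with list medians in red, the middle 50% of all kept symbols in grey and 2-fold as dotted lines. The sensors, signal factors and effectors are the genes with their own locus; receptors and kinases (median -0.01) and the other signal chain genes lie around 0, and the other interferon-induced genes have a median of -0.51.

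Markers of cells that can carry high interferon-stimulated transcripts were checked beside these values. Fibroblast markers were present, with 10 of 11 at 1 unit or more in EV, M, P and MP and 11 of 11 in WT. Of 13 leukocyte markers, 2 reached 1 unit in EV, M, P and MP and 3 in WT, with Cd14 and Csf1r among them in each library. The summed level of the 13 ran from 13.8 units in WT to 16.5 in P, of which Cd14 made up 9.57 to 12. Ptprc, the pan-leukocyte marker CD45, stood at 0.362 in WT, with EV at 0.186, M at 0.0491, P at 0.0423 and MP at 0.0415, and the macrophage genes Emr1 and Tyrobp were listed at 0 in P, MP and WT. No endothelial marker of 8 reached 1 unit in any library, and 1 epithelial marker of 8 did so, in P. Fibroblast markers differed too: Col3a1 and Postn were lower in WT than EV (-1.07 and -1.17), and Pdgfra and Lum higher (1.84 and 1.24). Their part in the result was not tested.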

How the data were processed

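RNA-seq of 5 cultures was deposited as 4 tables of 61082 loci, each with EV and 1 other library. The values are FPKM, estimated by the authors, who also deposited p-values and q-values for each table. TopHat, Cufflinks, Cuffdiff and the mm9 build are named per the submitters' processing notes, with versions not given in the sources used here. The tables carry no positions for use here.

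The EV column was taken from the table of M, since the EV columns of the tables differed by factors of 0.972 to 1.12 that were nearly constant over loci (99.4% or more within 1%). Loci with several symbols (911) or none (37277) were left out, except the 3 joined loci named in the text. For a symbol with more than 1 locus the one of higher mean level was used. FPKM were scaled to an upper quartile of 10 over 22338 loci at 1 FPKM or more in any library, a pseudocount of 1 was added and log2 differences were taken (Python 3.11.15, pandas 2.3.3). The calculation was tested on simulated data. Groups follow the labels and the depth of each library is unknown. The authors' calls are at a q-value of 0.05. Alternatives were other scalings, ranks, pseudocounts, filters, locus rules and limits, and, for WT against the mean of the hypomorphic libraries, each of those left out. Values were to be printed for each sensor and signal factor and for the 12 effectors of widest range. Those of Ifit2 and Isg15, outside the 12, were printed as well. Genes of other lists were to be named at 2-fold or more in WT against EV, up to 8 a list. More than 8 were named from the interferon-induced list. The genes, lists and motif search were chosen with earlier results of these data known.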

Additional observations from a re-analysis of the deposited data

How the results depend on the processing

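No paired analysis was possible because each group holds 1 library. On values as deposited, 19 of 31 genes passed the 2-fold limit upward in M against EV and 0 downward. Their median was 1.09 in place of -0.28. That of all symbols was 1.26, itself past the 2-fold limit, and 19 of the 31 lay below it. The counts that follow are of genes at least 2-fold lower, with the percentage of all symbols in brackets. WT against EV gave 18 of 31 (3.2%), which became 31 on values as deposited (98.5%) and 9 by percentile rank (3.35%). WT against P gave 11 (1.91%), which became 2 by rank (1.02%). With a floor of 5 units, which 14 genes passed in place of 29, it gave 6 (1.28%). On values as deposited all 31 genes were lower in P against EV (99.9%), MP against EV (99.9%) and MP against M (99.8%). The scaled counts there were 1 (1.85%), 3 (2.05%) and 0 (1.28%). By rank the counts of P and MP against EV were 0 (1.34% and 1.02%). With a floor of 5 units, which 19 genes passed, that of P was 0 (0.654%). A pseudocount of 0.1 gave 3 for M (2.24%), 6 for P (3.44%) and 8 for MP (4.42%) against EV and 1 for MP against M (2.62%). A limit of 1.5-fold gave 4 (2.73%), 11 (5.14%) and 12 (5.02%) for M, P and MP against EV. It gave 3 for MP against M (3.14%) and 1 of 28 for MP against P (5.07%). Against the mean of the hypomorphic libraries, WT gave 14 (1.56%), and 12 to 14 with each of these left out. The causes of these shifts were not tested, except that values as deposited carry the difference in scale between libraries. Scaling by the median moved the median of all symbols to -0.37 in WT against EV, -0.38 in WT against P, 0.36 in MP against EV, 0.33 in MP against M and 0.40 in MP against P. The interferon-stimulated genes' median was compared with that of all symbols under every scaling, filter, pseudocount and locus rule except the inclusion of joined loci. It stayed lower throughout in each comparison with EV, in WT against P and in MP against M. With 1 library a group and unknown depth, levels near the receptor-gene background cannot be ordered.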

Other observations

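Genes outside the 34 that carry the same promoter letters were looked at, as a description with no test and chosen after the data were seen. Of 300 other kept symbols with GAAANNGAAA in a RefSeq window, 18 (6%) were at least 2-fold lower in WT than EV and 15 (5%) higher. Of 8248 without it, 207 (2.51%) were lower and 512 (6.21%) higher. Against P, 7 of 288 with the letters (2.43%) and 129 of 8111 without them (1.59%) were lower in WT.

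The 18 genes included 7 of the interferon-induced list: Slfn8, Gbp7, Igtp, Tgtp2, Cxcl10, Irgm2 and Irgm1. Outside it were the apolipoprotein L genes Apol9b (17.7 units in EV and 3.55 in WT) and Apol9a (12.2 and 3.14), and the helicase gene Ddx60 (3.53 and 0.303), a relative of the RNA sensors. Igsf10, an immunoglobulin superfamily gene, had the widest difference, at 8.0 in EV and 0.0369 in WT (log2 -3.12). Igsf10, Slfn8, Gbp7, Ddx60, Igtp, Inhbb, Tgtp2, Apol10a, Gjc3, Phf11a and Irgm2 were under 1 unit in WT. These passed the floor through EV alone.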
